A study of Mus musculus with 4 samples.

Results

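Fibronectin, periostin and 6 further proteins of the wound matrix were followed at the transcript level in C57BL/6J mice, in parietal peritoneum (the serous membrane that lines the wall of the abdomen). The 8 genes were taken by name: Fn1, Postn, Cthrc1, Sparc, Spp1, Vcan, Tgfbi and Comp. They are 8 of 18629 named genes on the array, and 21 probe sets were assigned to them. Wild-type mice (WT) and mice with a brain natriuretic peptide transgene under the serum amyloid P promoter (SAP-BNP-Tg, called Tg here) were compared. Mice of either genotype received chlorhexidine gluconate (CG), an antiseptic that irritates the peritoneum, or ethanol/PBS as control. Chlorhexidine was injected into the peritoneal cavity as a 0.1% solution in 15% ethanol and 85% PBS, with 0.01 mL per gram of body weight given 3 times a week over 21 days. Proportions, volume and schedule of the ethanol/PBS injections were not given in the sources used here, nor were age, sex or the number of mice behind an array. The serum amyloid P promoter is known as a liver promoter, and the transgene was carried under ethanol/PBS as well as under chlorhexidine. Each of the 4 groups was 1 Affymetrix array, so no difference below has a replicate check, and in whole tissue fewer cells of a type and less RNA per cell cannot be told apart.

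The extracellular matrix laid down in a healing wound differs from that of resting tissue. Fibronectin forms an early fibrillar scaffold to which cells attach through integrins. Periostin, SPARC and osteopontin are matricellular proteins, which modify how cells and collagen interact rather than bearing load, and periostin and the TGF-beta-induced protein TGFBI share fasciclin domains. Versican is a large proteoglycan that binds hyaluronan, CTHRC1 is a secreted protein of injured arteries and fibrotic tissue, and COMP is a pentameric thrombospondin of cartilage and tendon. In the peritoneum, deposition of such a matrix below the mesothelium thickens the membrane, and chlorhexidine injection is a common way to bring this about in rodents.

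The promoter windows of Postn, Spp1 and Tgfbi are shown because Postn and Spp1 had higher signal under chlorhexidine and Tgfbi did not. They come from RefSeq (GRCm38.p6), which held a window for 5 of the 8 genes, and run from 250 bases before the most upstream start to 50 bases after it. Capitals mark matches, on either strand, to the TATA box TATAAA, the AP-1 motif TGANTCA, the RUNX motif AACCACA or the SMAD motif CAGAC. The Postn window is chr3:54359017-54359316 on the plus strand, the Spp1 window chr5:104434861-104435160 on the plus strand and the Tgfbi window chr13:56609336-56609635 on the plus strand.
Postn: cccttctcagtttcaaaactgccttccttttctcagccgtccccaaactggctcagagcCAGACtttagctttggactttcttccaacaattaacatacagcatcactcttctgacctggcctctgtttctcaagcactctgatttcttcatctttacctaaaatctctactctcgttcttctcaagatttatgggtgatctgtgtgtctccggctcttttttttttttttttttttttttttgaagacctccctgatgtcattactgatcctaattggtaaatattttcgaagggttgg
Spp1: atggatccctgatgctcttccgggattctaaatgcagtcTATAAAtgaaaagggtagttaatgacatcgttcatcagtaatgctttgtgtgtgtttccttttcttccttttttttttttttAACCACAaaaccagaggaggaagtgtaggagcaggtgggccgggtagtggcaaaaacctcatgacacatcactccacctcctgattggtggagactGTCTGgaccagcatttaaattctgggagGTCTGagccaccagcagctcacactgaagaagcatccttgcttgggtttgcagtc
Tgfbi: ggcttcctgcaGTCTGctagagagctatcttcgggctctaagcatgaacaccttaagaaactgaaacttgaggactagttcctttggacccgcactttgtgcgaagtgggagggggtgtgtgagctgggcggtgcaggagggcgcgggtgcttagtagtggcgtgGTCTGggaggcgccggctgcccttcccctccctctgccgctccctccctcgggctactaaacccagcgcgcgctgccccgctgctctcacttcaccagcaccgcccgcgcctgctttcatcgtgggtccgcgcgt
The Spp1 window held 1 TATAAA match 211 bases before the start and 1 AACCACA match 129 bases before it. Of 27025 windows of the same length, 14.2% held TATAAA, 5.37% AACCACA, 7.92% TGANTCA and 49.7% CAGAC. The Postn window held 1 CAGAC match, and the Spp1, Tgfbi and Sparc windows held 2 each. The Vcan window held no match to any of the 4, and TGANTCA was in none of the 5 windows. These matches are letters in a sequence and were not set against any binding data.

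The 4 arrays called 50.5% to 55.1% of 45037 probe sets Present. Before comparison the signals were brought to a common trimmed mean, and all signals below are scaled in this way. The WT ethanol/PBS array stood apart in part of its controls, with a mean 18S rRNA signal of 898.5 against 82.8 to 117 on the others. Its beta-actin signal from the 3-prime end was 5.81 times that from the middle of the transcript, against 2.23 to 2.84 times. Relative to the 5-prime end it was 1.22 times, close to the 1.07 to 1.15 times of the others. Because of the 18S and middle-of-transcript values, the WT chlorhexidine difference of each member's brightest probe set is also given against the Tg ethanol/PBS array. As a measure of technical disagreement, the log2 chlorhexidine differences of probe sets for 1 gene had an SD of 0.46 in WT (4727 genes) and 0.31 in Tg mice (4953 genes).

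With chlorhexidine, 6 of the 8 genes were at least 2-fold higher in WT mice and 5 in Tg mice. All 8 genes were called Present on all 4 arrays. The rule of size asked for a log2 difference of at least 1 (2-fold), that the brighter array was Present, and a signal there no lower than the 25th percentile of its Present probe sets, and it carries no p-value. It was met by 8.24% of the 13076 genes Present on at least 1 array in WT, by 3.78% in Tg mice and by 3.00% in both, where 5 members met it. Tgfbi and Comp met it in neither genotype, and Sparc met it in WT. The median log2 difference of the 8 genes was 2.42 in WT and 1.86 in Tg mice, beside -0.0028 and -0.0066 over all genes tested.

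**Figure D1:**
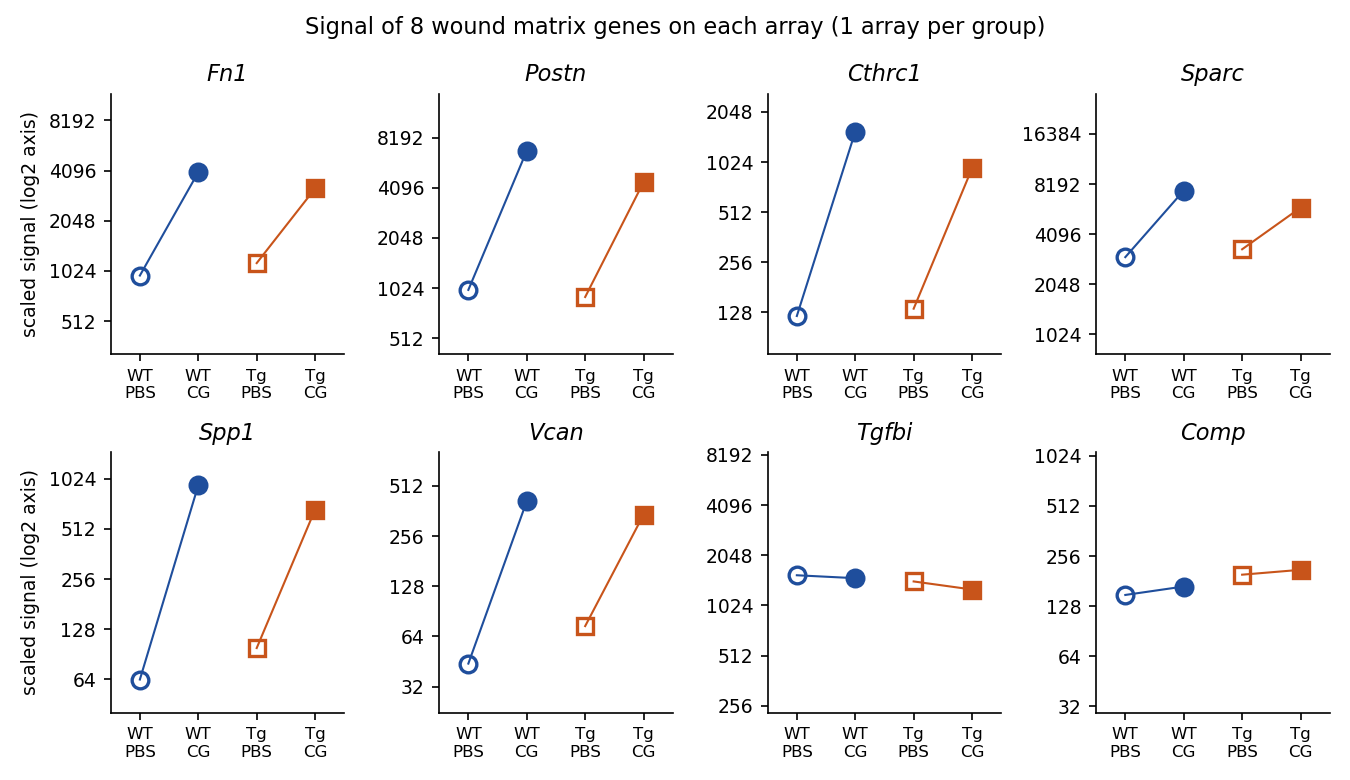
Scaled signal (log2 axis, each panel spanning the same number of doublings) of the 8 genes on the 4 arrays; circles are WT, squares Tg, filled symbols chlorhexidine (CG) and open symbols ethanol/PBS (PBS), with 1 array per point. Both chlorhexidine arrays lie above both ethanol/PBS arrays for 6 genes, whereas Tgfbi and Comp stay nearly level.

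Fibronectin (Fn1) is the adhesive scaffold protein. Its main probe set had signals of 960 on the WT ethanol/PBS array, 4006 on the WT chlorhexidine array, 1141 on the Tg ethanol/PBS array and 3199 on the Tg chlorhexidine array. Both chlorhexidine arrays were thus above both control arrays, as was the case for 6 of the 8 members and for 29.7% of all genes tested. The difference was 4.17-fold in WT and 2.80-fold in Tg mice, and 3.51-fold for WT chlorhexidine against the Tg control. A second, dimmer Fn1 probe set (1437218_at) had 18.8, 188, 61.0 and 120 in the same order of arrays and was Absent on the first. It was at least 9.99-fold higher in WT and 1.96-fold higher in Tg mice. The Fn1 probe sets therefore ordered the arrays alike but disagreed on size by more than the usual spread between probe sets. On the Tg control array the second probe set was at least 3.25-fold higher than on the WT one, against 1.19-fold for the main probe set. The WT difference of the second probe set thus depends on its Absent value on the WT control array, the array that stood apart.

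Periostin (Postn), a fasciclin protein that binds collagen and fibronectin, had signals of 998 and 6826 in WT mice (ethanol/PBS and chlorhexidine) and 904 and 4427 in Tg mice. These are differences of 6.84-fold and 4.89-fold. The ethanol/PBS arrays lay within 1.10-fold of each other, so the WT value changed little against the Tg control (7.55-fold). TGFBI, the other fasciclin protein, is named for its induction by TGF-beta. The main Tgfbi probe set had signals of 1553 and 1491 in WT and 1426 and 1275 in Tg mice, and the groups overlapped. All 4 Tgfbi probe sets were Present on all arrays, and their log2 differences lay between -0.06 and 0.17 in WT and between -0.24 and 0.08 in Tg mice. The direction of so small a WT difference flipped with the scaling, from -0.29 after median centring to 0.20 under cyclic loess, and was 0.06 against the Tg control.

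Osteopontin (Spp1), a phosphorylated ligand of integrins and CD44 made by macrophages and stromal cells, had the largest WT difference of the 8 genes against the WT control, and the second largest, after Cthrc1, against the Tg control. Its signals were 63.9 and 937 in WT and 98.7 and 669 in Tg mice. The difference was 14.7-fold in WT, the 49th highest of 13076 genes, and 6.78-fold in Tg mice, the 59th highest. The ethanol/PBS arrays differed by 1.54-fold, and against the Tg control the WT difference was 9.49-fold. SPARC, a collagen-binding protein that takes part in fibril assembly, differed less from a high control level. The brighter Sparc probe set had signals of 2982 and 7477 in WT and 3324 and 5908 in Tg mice, on arrays whose highest signal lay between 9272 and 11473. This is 2.51-fold in WT and 1.78-fold in Tg mice, with 2.25-fold for WT chlorhexidine against the Tg control. A second Sparc probe set (1448392_at), Present on all arrays, had differences of 2.07-fold and 1.66-fold, and 1458204_at was Absent on all.

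Cthrc1 encodes a secreted protein that limits collagen deposition in injured vessels and marks collagen-producing fibroblasts of scars. Its signals were 122 and 1556 in WT and 135 and 939 in Tg mice, so both control arrays were low and both chlorhexidine arrays high. The difference was 12.8-fold in WT and 6.96-fold in Tg mice, with 11.5-fold for WT chlorhexidine against the Tg control. In Tg mice it was the largest of the 8 genes against the Tg control, just above Spp1, and the 58th highest of all genes tested. Against the WT control, Tg chlorhexidine was 7.70-fold higher for Cthrc1, below Spp1 (10.5-fold) and Vcan (7.84-fold).

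Versican (Vcan) carries chondroitin sulfate chains and loosens the provisional matrix. The Vcan probe set with the highest signal (1427256_at) had 43.9 and 415 in WT and 73.8 and 344 in Tg mice, a difference of 9.44-fold and 4.67-fold. The control arrays differed by 1.68-fold, and against the Tg control the WT difference was 5.62-fold. A further probe set (1421694_a_at) was at least 10.9-fold higher in WT, where the control array was Absent, and 4.23-fold higher in Tg mice. On this probe set the Tg control array was at least 2.03-fold above the WT one. For 1427257_at both control arrays were Absent, and the bounds were 5.54-fold in WT and 5.56-fold in Tg mice. The other 5 Vcan probe sets were Present on no array, and their differences had both signs. Comp, at the other end, had signals of 149.5 and 168 in WT and 198 and 212 in Tg mice, differences of 1.12-fold and 1.07-fold. The Tg arrays were both above the WT ones, by 1.32-fold under ethanol/PBS and 1.26-fold under chlorhexidine. The sign of the Comp differences also depended on the scaling, with -0.06 in WT after median centring and -0.10 in Tg mice with the deposited scaling, and on the control array, with -0.24 for WT chlorhexidine against the Tg control.

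**Figure D2:**
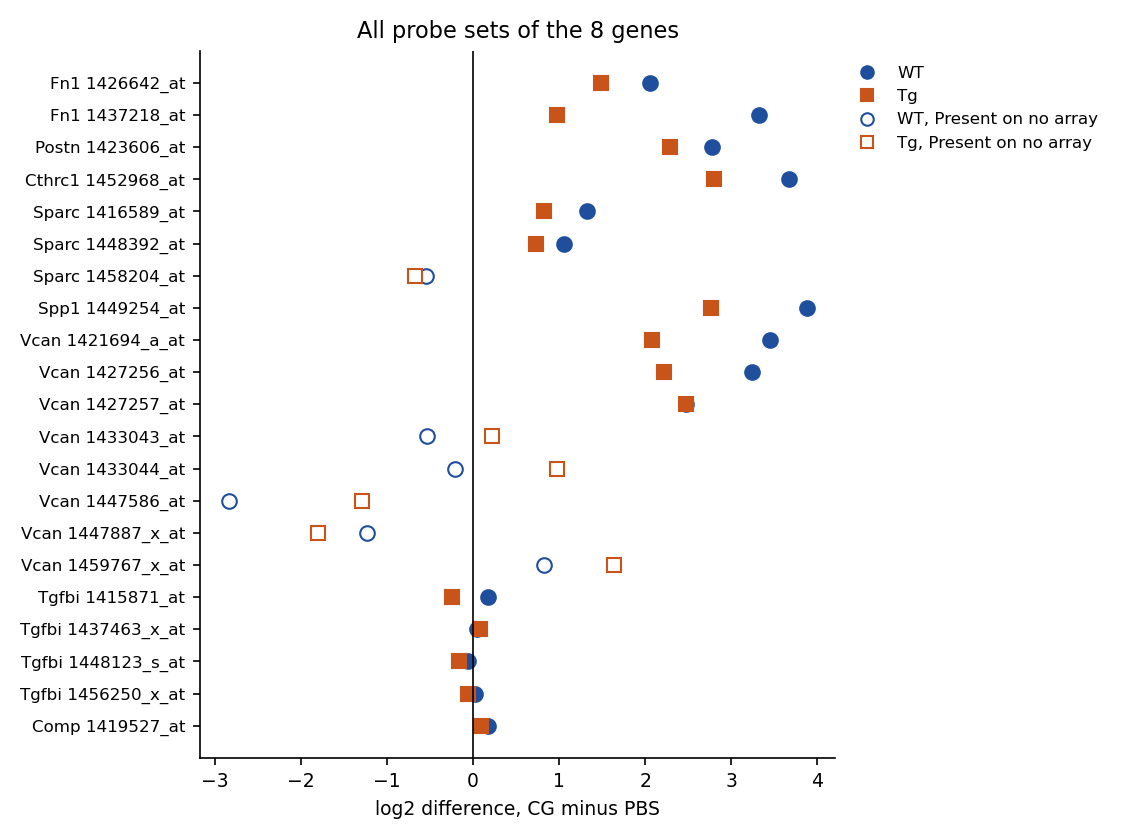
Log2 difference, chlorhexidine (CG) minus ethanol/PBS (PBS), of all 21 probe sets of the 8 genes in WT (circles) and Tg mice (squares); open symbols mark the 6 probe sets Present on no array. Among the 15 others, the differences of Fn1, Postn, Cthrc1, Sparc, Spp1 and Vcan are above 0 in both genotypes, and those of the 4 Tgfbi probe sets lie close to 0.

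**Figure D3:**
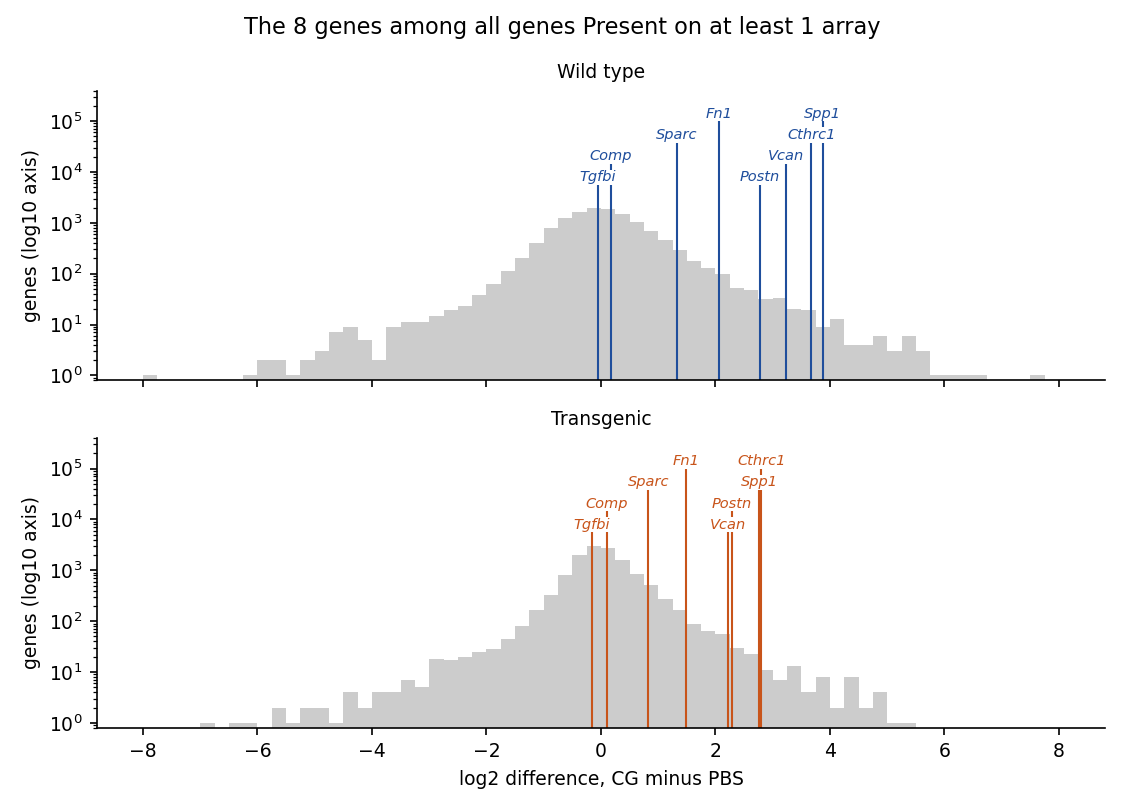
Number of genes (log10 axis) by log2 difference, chlorhexidine minus ethanol/PBS, over 13076 genes in WT (top) and Tg mice (bottom), with lines at the 8 genes. Cthrc1 and Spp1 lie above 99.5% of genes or more in either panel, and Tgfbi and Comp lie in the centre of both.

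Fitted together, the 4 arrays gave the members in the order of their WT differences. An additive model in limma, with terms for treatment and genotype and 1 residual degree of freedom, estimated log2 coefficients for chlorhexidine of 3.32 ± 0.33 (SE) for Spp1, 3.24 ± 0.29 for Cthrc1, 2.73 ± 0.32 for Vcan, 2.53 ± 0.24 for Postn, 1.77 ± 0.25 for Fn1 and 1.08 ± 0.24 for Sparc. None of the 8 passed at a Benjamini-Hochberg adjusted p of 0.05 over all genes, where 0.0535% of genes (7 of 13076) did. Adjusted p in limma was 0.0597 for Spp1, Cthrc1 and Postn, 0.0598 for Vcan, 0.0720 for Fn1 and 0.113 for Sparc. These 6 genes had an unadjusted limma p under 0.05, as did 22.9% of all genes. The coefficients were -0.11 ± 0.21 for Tgfbi (limma, adjusted p = 0.779) and 0.13 ± 0.21 for Comp (0.728). The calls depended on the setting, and the share of all genes called moved with them. With an intensity trend 6 members passed, as did 18.5% of all genes, and when limited to genes Present on all 4 arrays 6 members and 19.9% of genes. With the pseudocount these were 6 members and 16.6%, with the deposited scaling 5 members and 5.37%, and after median centring 4 members and 1.01%. Under quantile normalization or cyclic loess 0 members and 0 genes passed, with 2892 and 2909 genes at an unadjusted limma p under 0.05. The model takes any difference between the genotypes' responses as error. Its SEs and p-values rest on variances moderated across genes. In the main setting that sharing gave 3.59 of 4.59 degrees of freedom, so they are mostly not the gene's own spread.

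The log2 chlorhexidine difference was lower in Tg than in WT mice for all 8 genes, by a median of -0.53. After median centring the order turned for Tgfbi (-0.29 in WT, -0.20 in Tg) and Comp (-0.06 in WT, 0.06 in Tg). Averaging all probe sets, undetected ones included, turned it for Vcan (0.64 in WT, 0.81 in Tg). Over all genes tested the Tg difference was the lower one for 49.2%, and among the 392 genes 2-fold higher in both genotypes for 83.9%, with a median of -0.47. The direction for the 5 members among those 392 is thus that of most genes with higher signal. By the brightest probe set of each gene, the gap was widest for Spp1, at -1.11, where the Tg fold was 46.2% of the WT fold. Vcan followed at -1.02 (0.0041 for its probe set 1427257_at, whose control arrays were both Absent) and Cthrc1 at -0.88. It was -0.57 for Fn1, -0.50 for Sparc and -0.48 for Postn, all near the SD of 0.46 between probe sets in WT alone. With both Fn1 probe sets averaged the Fn1 gap was -1.46, which takes in the Absent value on the WT control array. The gaps of Tgfbi (-0.10) and Comp (-0.07) were well inside the spread between probe sets. Against the control array of the other genotype, 5 members kept the higher difference under WT chlorhexidine, and Spp1, Vcan and Comp did not. With 1 array per group this difference of differences has no residual and cannot be tested.

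**Figure D4:**
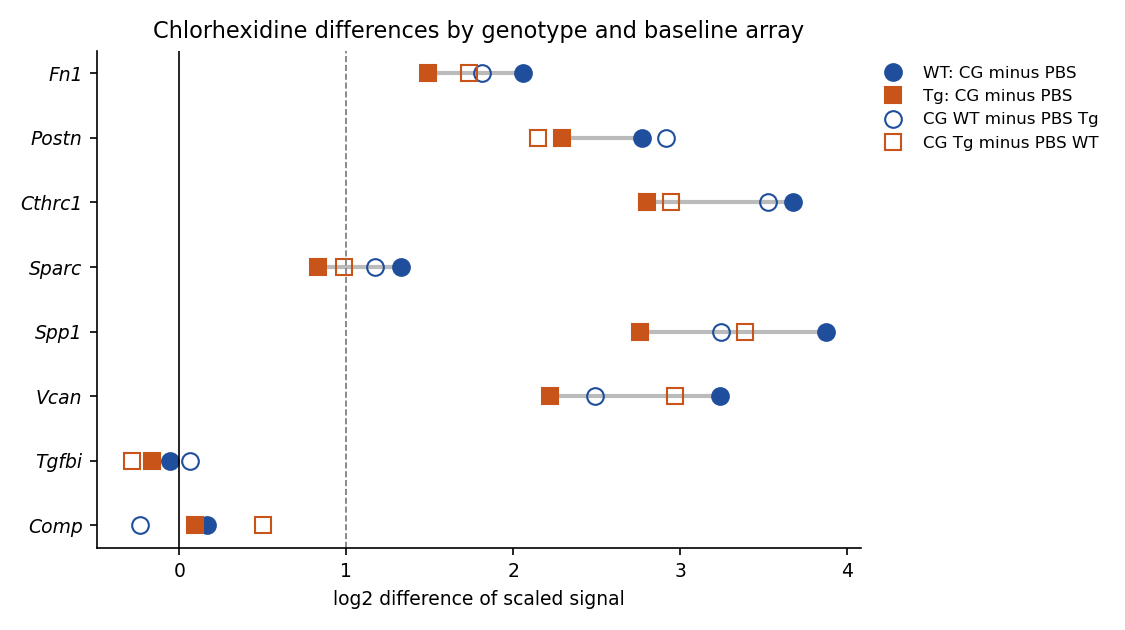
Log2 differences of the 8 genes in WT (filled circles) and Tg mice (filled squares), with open symbols for each chlorhexidine array against the ethanol/PBS array of the other genotype; the dashed line is 2-fold. Filled squares lie left of filled circles for every gene, while for Spp1, Vcan and Comp the open symbols are in the opposite order.

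Between the chlorhexidine arrays alone, 7 of the 8 genes had lower signal in Tg mice, as did 54.3% of all genes and 84.4% of the 392 genes higher in both genotypes. Cthrc1 was 1.66-fold lower, Postn 1.54-fold, Spp1 1.40-fold, Sparc 1.27-fold, Fn1 1.25-fold, Vcan 1.20-fold and Tgfbi 1.17-fold lower, and Comp was the exception. None of them was 2-fold lower, a size that 0.994% of genes reached. Between the ethanol/PBS arrays no member was 2-fold higher in Tg mice, where 1.01% of genes were. Vcan and Spp1 came closest, at 1.68-fold and 1.54-fold higher, and passed 2-fold with the deposited scaling (log2 1.17 and 1.05). For these 2 genes the larger part of the gap between genotypes lay between the control arrays (0.75 of 1.02 and 0.63 of 1.11 log2 units), whereas for Cthrc1 and Postn it lay between the chlorhexidine arrays (-0.73 and -0.62). When each chlorhexidine array was set against the other genotype's control array, 6 members were 2-fold higher for WT chlorhexidine (7.29% of all genes) and 5 for Tg chlorhexidine (5.14%).

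Several receptors of these proteins had higher signal too. Of 16 receptor genes, 9 were 2-fold higher in WT and 4 in both genotypes, with none lower and medians of 1.11 and 0.68. The WT count was 5 after median centring, and the Tg count was 2 with the deposited scaling, 1 with the pseudocount and 0 with all probe sets averaged. Itga5, the alpha subunit of the main fibronectin receptor, was at least 6.91-fold higher in WT and 3.11-fold higher in Tg mice. Cd44, which binds osteopontin and hyaluronan, was 3.32-fold and 2.43-fold higher. Tlr2, a pattern receptor that versican can engage, was 3.72-fold and 1.88-fold higher. The integrin subunit Itgb3 and the endocytic receptor Lrp1 were the other genes higher in both, and Itgb3 was 1.63-fold higher for WT chlorhexidine against the Tg control.

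Relatives of the members by protein family went both ways. Of 23 genes, 16 were Present on at least 1 array, 7 were 2-fold higher in WT and 2 of these in Tg mice too, and 2 were lower in WT (Smoc1 and Spock2; 1 with the deposited scaling). Medians were 0.53 and 0.49. Fstl1, a SPARC-related secreted protein, was 3.92-fold and 2.85-fold higher. Thbs3, a pentameric thrombospondin like Comp, was 2.92-fold and 2.54-fold higher, and Thbs1 10.8-fold and 1.87-fold. Against the Tg control, WT chlorhexidine was 3.43-fold higher for Thbs1. The bone relatives of osteopontin Ibsp, Mepe and Dspp and the versican relatives Acan, Bcan and Ncan were called Present on no array, whereas Dmp1, another bone relative, was Present on all 4 at low signal (21.8, 13.8, 21.2 and 20.5).

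Genes that assemble or process the member proteins had the highest medians of the 4 lists around them. Of 25 genes, 17 were 2-fold higher in WT and 9 in both genotypes, none was lower, and the medians were 1.63 and 0.93. The collagen crosslinking enzyme Lox, whose activation periostin is known to support, was 8.10-fold and 3.88-fold higher. The membrane protease Mmp14 was 8.93-fold and 3.18-fold higher. Has1, a synthase of the hyaluronan to which versican binds, was Present on the WT chlorhexidine array only. Its signal was 129.8 there, against Absent values of 4.58 on the WT control, 41.6 on the Tg control and 40.4 on the Tg chlorhexidine array. This is at least 3.12-fold higher than on the Tg control. The 28.3-fold difference from the WT control rests on the low Absent value there and is no firm bound. Against the Tg control, WT chlorhexidine was 4.53-fold higher for Lox and 5.76-fold higher for Mmp14. Bmp1, the protease that removes the Lox propeptide, was 2.62-fold and 2.27-fold higher.

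Inducers and targets of TGF-beta, which is known to raise Fn1, Postn and Tgfbi in fibroblasts, had a median of 1.07 in WT and 0.15 in Tg mice, the latter turning to -0.04 with the deposited scaling. The list has 17 genes and also takes in IL-4 and IL-13 ligands and receptor chains. Of these 17, 8 were 2-fold higher and 1 (Smad3) lower in WT. In both genotypes 4 were higher, and these include the receptor chains Il4ra and Il13ra1. With the pseudocount 2 were higher in Tg mice, and against the Tg control Smad3 was 1.48-fold lower. Ltbp2, a microfibril protein, was 3.61-fold and 2.39-fold higher. The receptor chains Il13ra1 (3.40-fold and 3.73-fold) and Il4ra (2.59-fold and 2.46-fold) were higher in both, whereas Il13 was Absent on all 4 arrays. IL-13 is a known inducer of periostin. Connective tissue growth factor, Ccn2, a classical TGF-beta target, was 2.63-fold and 2.25-fold higher. Over all genes tested, 654 were 2-fold lower in WT and 191 in Tg mice.

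**Figure D5:**
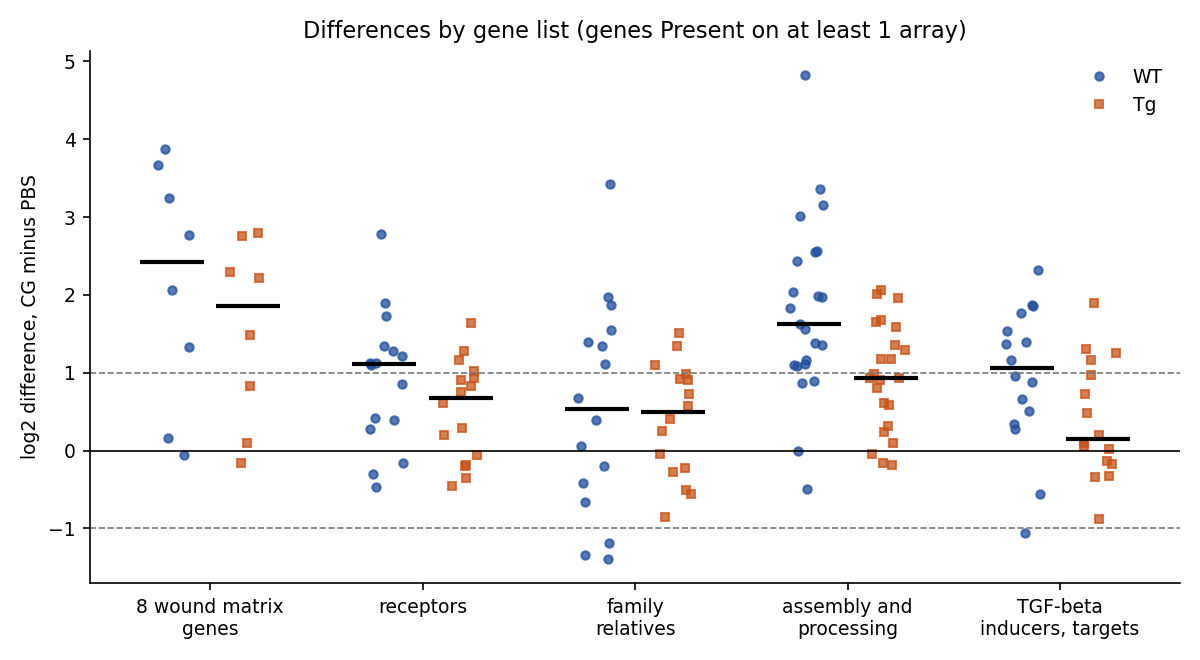
Log2 difference, chlorhexidine (CG) minus ethanol/PBS (PBS), of each gene Present on at least 1 array in the 8 wound matrix genes and 4 lists around them; circles are WT, squares Tg, bars medians, and dashed lines 2-fold. The bars are highest for the 8 genes (2.42 and 1.86) and next for assembly and processing genes (1.63 and 0.93).

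Over the 4 arrays, the profile most like that of Fn1 among 10670 genes Present on all was that of Efemp2, the matrix protein fibulin-4, at a Euclidean distance of 0.049 log2 units, with 4.17-fold and 2.85-fold differences. Gm20559, Enc1, Bst2 and Plscr2 followed at 0.064 to 0.086. Closest to Postn was C1qtnf3, a secreted protein with a collagen domain, at 0.20 (6.00-fold and 4.23-fold), followed by Tpbg, AA467197, Tnnt2 and Mymk at 0.26 to 0.31. Among the members, Cthrc1 and Spp1 were most alike at 0.39, whereas Spp1 and Tgfbi were farthest apart at 3.47. These distances rest on 4 values per gene.

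Markers of several cell types moved with the members. Of 10 fibroblast markers, 5 were 2-fold higher in WT and 4 in both genotypes. The WT count was 3 after median centring or against the Tg control, and the Tg count 2 with the deposited scaling. Their summed signal was 12375, 20666, 12928 and 17784 in the order WT control, WT chlorhexidine, Tg control and Tg chlorhexidine. Lrrc15, a marker of scar fibroblasts, was higher by at least 17.1-fold in WT and by at least 5.91-fold in Tg mice, Mfap5 2.99-fold and 2.76-fold and Col14a1 2.71-fold and 2.21-fold. Of 10 macrophage markers, 6 were higher in WT and 4 in both (2 in Tg mice with the deposited scaling), with summed signals of 5516, 9312, 5885 and 8847. Trem2 was higher by at least 10.1-fold in WT and by at least 5.18-fold in Tg mice, Fcgr1 6.63-fold and 4.70-fold and Itgam 4.55-fold and 2.13-fold. Against the Tg control, WT chlorhexidine was 2.02-fold higher for Itgam. Without cross-hybridising probe sets, another Trem2 probe set stood for the gene and was lower in both genotypes. The part of these cells in the differences of Spp1, Fn1 and the other members was not tested.

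Other markers moved less evenly with the members. All 12 mesothelial markers were Present on at least 1 array. Of these, 5 were 2-fold lower in WT and none in Tg mice, with summed signals of 1034, 517, 794 and 772 in the same order. Against the other genotype's control these counts were 3 and 2. Bnc1 was 4.89-fold and 1.65-fold lower and Krt19 4.02-fold lower in WT (1.81-fold against the Tg control), while Wt1 was 1.92-fold and 2.38-fold higher. The 10 skeletal muscle markers had none past 2-fold and the highest summed signal (93722, 79012, 77335 and 79327). Their single signals ran from 5549 (Mb, WT chlorhexidine) to 11473 (Tnnt3, WT control), on arrays whose highest signal lay between 9272 and 11473. A 2-fold rise could hardly have been seen so close to the top of the scale. Of 9 tendon and cartilage markers, 2 were higher in WT (Mkx and Sox9, of which Sox9 was 1.75-fold higher against the Tg control). Col2a1, Col9a1 and Chad, which mark cartilage with Comp, were Present on no array. The tendon markers Fmod (1994, 1378, 2093 and 1691), Tnmd (573, 536, 877 and 629) and Kera (82.9, 74.3, 156 and 133) were Present on all 4 arrays. None of them met the rule of size in either genotype. Among neutrophil markers, S100a8, S100a9 and Csf3r were higher in both genotypes and the other 3 measured were Absent throughout, with summed signals of 79.5, 441, 214 and 2138. Against the Tg control, S100a9 was 1.30-fold higher for WT chlorhexidine. All 5 B and plasma cell markers were lower in WT and 4 in both, with summed signals of 3559, 101, 1599 and 179. Of 4 adipocyte markers, 3 were lower in WT and 2 (Lep and Cidec) in both, Cidec being 1.39-fold lower for Tg chlorhexidine against the WT control, with sums of 10782, 5989, 11084 and 8048. Of 5 endothelial markers, 2 (Kdr and Emcn) were higher in WT, of which Emcn was 1.42-fold higher against the Tg control, with sums of 591, 868, 683 and 673. The part of these cells in the members' differences was not tested.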

How the data were processed

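The 4 arrays measured biotin-labelled RNA of parietal peritoneum, 1 for each genotype and treatment, grouped by the sample labels. The deposited values are signals, an intensity per probe set on a linear scale, and beside each stand its detection p-value and call (Present, Marginal, Absent) from the authors, per the file headers. How the signals were computed and scaled was not given in the sources used here. A deposited series table repeated these signals, with 0 values differing.

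From these, each array was scaled to a common 2% trimmed mean over 45037 probe sets (64 controls left out), floored at 0.1 and turned to log2. Genes were named by the platform table (34945 probe sets) or, where that gave no gene, by the gene identifier in the deposited descriptions (789, Spp1 among them), with RefSeq GRCm38.p6 symbols; 932 with several genes and 8371 with none were not named. Each gene is represented by the probe set brightest on average over the log2 signals. Except for Has1 against the WT control, a fold against an array without a Present call is given as a lower bound. Such a fold was taken against that array's lowest Present signal or the probe set's own, whichever is higher. It assumes that the undetected level was no higher than that. The additive fit used limma 3.58.1 (R 4.3.3) and was tested on simulated data.

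Members and gene lists were chosen with earlier results of these data known. Named genes were the members and up to 3 genes of each list with the largest mean absolute difference. The 5 profiles closest to Fn1 and to Postn were named as well. Itgb3, Lrp1, Bmp1, Ccn2, Il13, Thbs4, Tnmd and Kera were named after their values were seen. So were genes Present on no array and those completing counts of 5 or fewer. Alternatives were 4 other scalings, a pseudocount of 32, other probe set rules, other filters, 1.5-fold and 3-fold thresholds, the other control array and other fits.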

Additional observations from a re-analysis of the deposited data

Results flagged for a closer look

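The results below went in opposite directions with chlorhexidine in the genotypes, none of them tested since each group is 1 array. The Tg minus WT difference of log2 differences was -0.42 for the Tgfbi probe set 1415871_at (0.17 for WT, -0.24 for Tg). For the Tgfbi probe set 1456250_x_at it was -0.090. It was 2.30 for the mesothelial keratin Krt19 (lower by 1.81-fold in either genotype against the other genotype's control), 0.36 for the muscle myosin light chain Mylpf, -1.74 for the endothelial receptor Kdr and -0.67 for the endothelial adhesion protein Pecam1.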

How the results depend on the processing

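The counts of members 2-fold higher kept within 1.5 times of 6, 5 and 5 (WT, Tg, both) under every alternative run for them, but calls were lost. Averaging all probe sets of a gene, undetected ones included, left 4, 4 and 4: Vcan fell to 0.64 in WT and 0.81 in Tg and Sparc to 0.61 in WT. It moved the members' median to 1.67 in WT and 1.02 in Tg mice. With the control array of the other genotype, 5 in place of 8 members had the larger difference in WT. The additive limma fit called 0 members; this became 6 with an intensity trend (2416 genes called in all, against 7), 6 with genes Present on all 4 arrays (2118), 6 with the pseudocount (2167), 5 with the deposited scaling (702) and 4 after median centring (132). Trem2 turned to -2.13 and -0.29 without cross-hybridising probe sets, where another probe set stood for it. The cause of the other changes was not tested. The median of all genes shifted in WT to 0.25 with the deposited scaling, -0.23 after median centring and -0.11 under quantile normalization. In Tg mice it shifted to -0.20 with the deposited scaling. The members' medians above it were 2.42 and 1.86 with the deposited scaling and after median centring. They could not change there, since these scalings shift all log2 signals of an array by the same amount. Under quantile normalization the members' medians above that of all genes were 2.66 and 1.91. The WT count of 1077 genes higher and 654 lower became 1645 and 326 with the deposited scaling and 747 and 1257 after median centring, and the Tg 494 and 191 became 343 and 332. List medians that changed sign with the setting were those for muscle (-0.47 to 0.24 in WT, -0.22 to 0.11 in Tg) and, in Tg mice, for the TGF-beta list (-0.04 to 0.58), tendon and cartilage (-0.40 to 0.41) and endothelial markers (-0.22 to 0.01). No paired analysis was possible because each group has 1 array.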
